A study of Homo sapiens with 7 samples.

Results

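The TRIM (tripartite motif) family of ubiquitin ligase genes was taken as every gene of the deposited table whose symbol is TRIM followed by a number. This rule gave 77 genes of 19978. TRIM proteins typically carry a RING domain, which recruits a ubiquitin-conjugating enzyme, then B-box and coiled-coil regions, through which they assemble into dimers and larger lattices. Their C-terminal domain decides what they bind and sets the class a member belongs to. Many members are induced by interferon and act in antiviral defence, while others work as transcriptional corepressors, at microtubules or in membrane-bound protein disposal.

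Expression was measured by sequencing poly(A) RNA of HEK-293, an established human embryonic kidney cell line, after 48 h of treatment. Cells of the control group (2 samples) received vehicle (DMSO) at pH 7.4, and cells of the acidosis group (3 samples) received vehicle at pH 6.6. Cells of the SRPIN340 group (2 samples) stayed at pH 7.4 and received 10 µM of SRPIN340 in the same vehicle. SRPIN340 is an inhibitor of the SR protein kinases. Acidosis was compared with SRPIN340 to set mild acid stress beside loss of phosphorylation of splicing factors. All samples come from this 1 cell line, and the values describe no other cell type.

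Library totals lay between 13615816 and 24110460 estimated counts, with the lower depth in acidosis samples 2 and 3. The 8 HEK-293 markers examined were detected, while 10 of 12 markers of other cell types were under 1 CPM (counts scaled to the TMM-adjusted library total) in every sample. Summed over those 12 markers, the level was 6.84 to 9.23 CPM in control, 7.63 to 8.47 CPM with SRPIN340 and 32.7 to 46.0 CPM in acidosis. ACTN2 carried this difference, and the 11 other markers summed to 0.648 to 2.63 CPM in control, 1.47 to 2.35 CPM with SRPIN340 and 1.29 to 1.48 CPM in acidosis. CD3E, MYOG and INS were at 0 in every sample, and the part of such markers in the results was not tested. The summed HEK-293 markers lay between 1050 and 1133 CPM in control and between 2980 and 3029 CPM in acidosis. In such bulk samples, fewer cells of a type and less RNA per cell cannot be told apart.

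Of the 77 TRIM genes, 53 passed the filter on low counts and were tested. They included 47 that reached the filter's level in each group. Of the 24 others, 11 were at 0 in every sample and 13 had too few counts. A gene passed the test at a Benjamini-Hochberg adjusted p under 0.05 over all 14863 genes tested (edgeR, quasi-likelihood), and was called if its log2 fold change also exceeded 1 in size. P-values measure only the spread between these samples.

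Compared per kilobase of transcript, TRIM28 was the most abundant TRIM mRNA in control cells, at 127 CPM per kilobase. TRIM28, also known as KAP1, is the corepressor that KRAB zinc finger proteins bring to chromatin. Next came TRIM27, a ligase of endosomal sorting, at 29.8, TRIM25 at 24.1, TRIM26 at 20.1 and TRIM37, a ligase of centrosomes and peroxisomes, at 18.1 CPM per kilobase. The median tested member stood at 4.19 CPM per kilobase. In acidosis TRIM28 stood at 135, TRIM26 at 16.7, TRIM27 at 12.6, TRIM25 at 10.7 and TRIM37 at 8.55 CPM per kilobase.

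**Figure D1:**
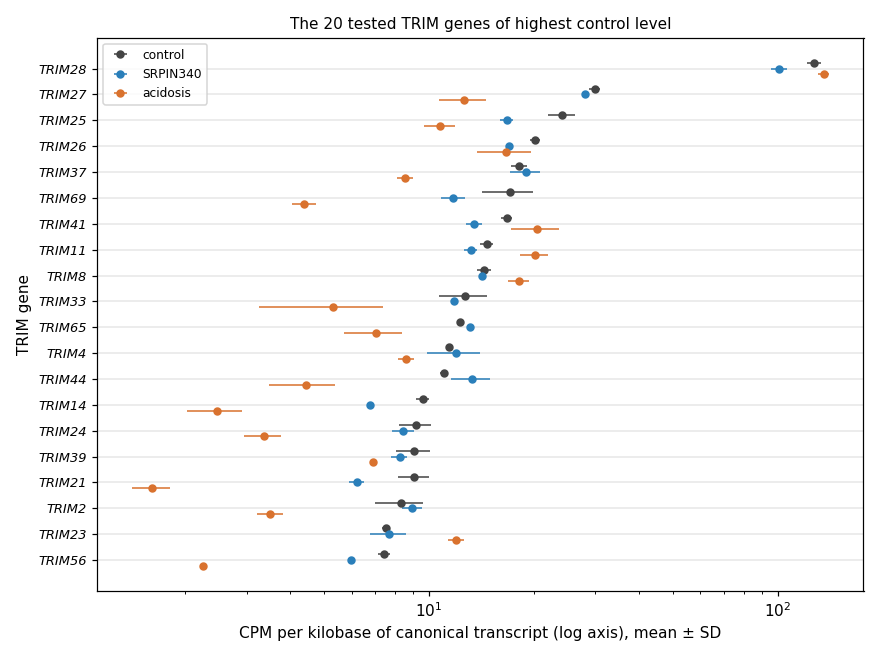
Levels of the 20 tested TRIM genes of highest control level, in CPM per kilobase of canonical transcript on a log axis, as group means with SD (control and SRPIN340 n = 2, acidosis n = 3). TRIM28 lies apart from the rest at 127 in control, and TRIM27 at 29.8 comes next.

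The summed level of TRIM transcripts was lower in acidosis. Their sum was 1979 and 1920 CPM in the control samples, 1777 and 1768 CPM with SRPIN340, and 1484, 1430 and 1369 CPM in acidosis. The ranges of the groups did not overlap. These sums are TMM-scaled and are not shares of a library, as TMM factors were 1.17 to 1.21 in control and SRPIN340 and 0.78 to 0.80 in acidosis. Unscaled, TRIM genes held 54920 of 23695530 counts in control sample 1 and 24991 of 21370143 in acidosis sample 1. Without TRIM28 the sums were 1565 and 1478 CPM in control, 1425 and 1442 CPM with SRPIN340, and 1011, 982 and 924 CPM in acidosis. TRIM28 thereby made up 20.9% and 23.0% of all TRIM counts in control, and 31.9%, 31.4% and 32.5% in acidosis.

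In acidosis, 24 of the 53 tested members were called lower than in control (45.3%, against 19.1% of all genes tested) and 1 was called higher (1.89%, against 14.4%). Of the 24, TRIM10 and TRIM34 reached the filter's level only in control and SRPIN340, and the 22 others in every group. Without the fold limit, 27 members fell (50.9%, against 34.2%) and 10 rose (18.9%, against 32.5%). The median log2 fold change was -0.83 for the members and -0.052 for all genes tested, with members between -2.53 and 2.40. The members included 35 below 0 and 18 above it. Scaling by total count alone moved the median of all genes to -0.63 and that of the members to -1.40. The members' median was -0.44 by DESeq2 and -0.54 without control sample 1, where more members of low counts were tested, and over the 53 members it was -0.79 and -0.80. With total count scaling 0 members were called higher, and 4 of the 10 members that rose had values below 0.

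With SRPIN340, 0 members were called higher (against 0.128% of all genes) and 0 lower (against 0.195%) by edgeR, and DESeq2 gave 0 in each direction as well. Without the fold limit, 0 members rose (against 0.767%) and 2 fell, TRIM25 and TRIM28 (3.77%, against 1.53%). At an unadjusted p under 0.05, 8 of 53 members differed from control (against 17.6% of all genes), 7 of them lower (against 9.48%). The median log2 fold change was -0.019 for the members and 0.0024 for all genes. Acidosis was also compared directly with SRPIN340. There 23 members were called lower in acidosis (43.4%, against 19.7% of all genes) and 2 higher (3.77%, against 14.9%).

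**Figure D2:**
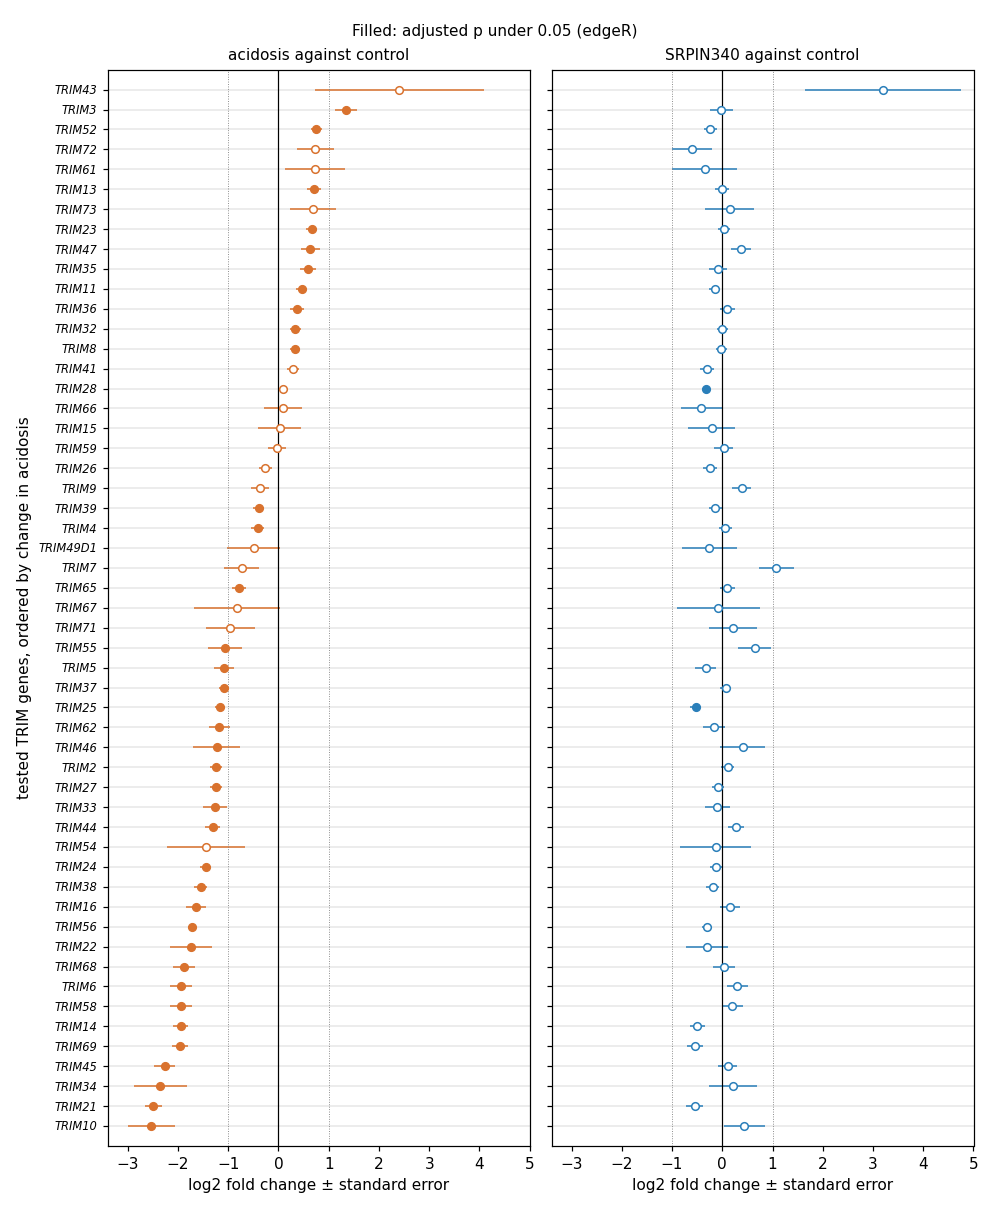
Log2 fold changes with standard errors of the 53 tested TRIM genes in acidosis (left) and with SRPIN340 (right), each against the same control samples, ordered by the acidosis value. Filled points have an edgeR adjusted p under 0.05, and dotted lines mark a log2 fold change of 1 in either direction. Filled points are many in acidosis (37) and few with SRPIN340 (2), and the open point at the top is TRIM43, which has hardly any counts.

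TRIM59 is a transmembrane ligase with roles in tumour growth, and the study followed its splicing by RT-PCR. The gene (ENSG00000213186.8, GRCh38 chr3:160432445-160485773, minus strand) has 3 exons in its canonical GENCODE transcript. Exon 1 (chr3:160449717-160449786) and exon 2 (chr3:160448726-160448795) hold 70 bases each and no coding sequence, and exon 3 (chr3:160435503-160439186) holds all 1209 coding bases. The primers of the study are shown because they define which RNA each product counts. The study names its reference pair for exon 1 and its junction pair for exons 1 and 2, and exons here are numbered as in the canonical transcript. The reference pair lies wholly within exon 3 and gives a product of 210 bases, whatever exons precede it. The forward primer of the junction pair spans the boundary of exons 2 and 3, with its 21 bases of exon 2 in capitals, and its product is 101 bases long. The deposited gene-level counts do not measure whether exon 2 is included.
TRIM59 reference forward: ggctctctgtgatgttggca
TRIM59 reference reverse: acgggttgaacctcaggaag
TRIM59 junction forward: CCAAACCACGAGATCAACAAAgaaa
TRIM59 junction reverse: gagcatggcagtacacgagg

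TRIM59 was measured at 26.3 and 19.9 CPM in control, 22.9 and 24.3 CPM with SRPIN340, and 23.3, 26.7 and 18.2 CPM in acidosis. All groups overlapped. The log2 fold change was -0.02 in acidosis (standard error 0.177, 95% interval -0.42 to 0.37, edgeR adjusted p = 0.917). With SRPIN340 it was 0.03 (standard error 0.189, interval -0.39 to 0.46, edgeR adjusted p = 0.96). By total count alone the acidosis value was -0.60 (edgeR adjusted p = 0.0133). A read-through gene that runs across TRIM59 and IFT80 on the same strand (ENSG00000248710.1, chr3:160227454-160449829) was listed separately, and estimated counts can be split between overlapping genes. It had 5.88 and 61.0 estimated counts in control, 39.6 and 70.4 with SRPIN340, and 0 in all 3 acidosis samples (edgeR adjusted p = 0.00837). This read-through gene reached the filter's level only in control sample 2 and the SRPIN340 samples, so that only a fall could be seen. Its mean CPM was at least 4.97-fold lower in acidosis, against a floor of 3 counts per library, and that mean rests mostly on control sample 2. With these counts added to TRIM59, an alternative chosen after seeing the data, the acidosis value for TRIM59 was -0.09 (edgeR adjusted p = 0.633).

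The closest relative of TRIM59 by domain layout is TRIM13, a ligase anchored in the endoplasmic reticulum, where misfolded proteins are sent for degradation. TRIM13 was at 21.7 and 18.2 CPM in control, 21.0 and 18.6 CPM with SRPIN340, and 35.6, 30.8 and 30.9 CPM in acidosis. All acidosis samples lay above the others. It rose in acidosis by a log2 fold change of 0.70 (standard error 0.134, edgeR adjusted p = 0.00111), short of the fold limit, and by 0.13 with total count scaling (edgeR adjusted p = 0.404). With SRPIN340 the value was -0.01 (edgeR adjusted p = 0.984). The difference between the responses of TRIM13 and TRIM59 was not tested.

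The interferon-linked members are TRIM25, which attaches ubiquitin chains to the viral RNA sensor RIG-I, TRIM21, a cytosolic receptor for antibody-coated viruses, TRIM5, which binds retroviral capsids, and TRIM22, an antiviral ligase encoded next to TRIM5. All 4 fell in acidosis and were called lower (against 19.1% of all genes tested), with a median log2 fold change of -1.45. Of the 49 other tested members, 20 were called lower and 1 higher, with a median of -0.74. With SRPIN340 the medians were -0.43 for the 4 and -0.01 for the others. No test of the difference between these sets was made.

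TRIM25 (ENSG00000121060.19, chr17:56836387-56914080) was at 147 and 130 CPM in control, 93.0 and 98.8 CPM with SRPIN340, and 67.6, 55.1 and 62.3 CPM in acidosis. The groups formed 3 separate ranges, with SRPIN340 between the others. The log2 fold change was -1.16 in acidosis (standard error 0.1, edgeR adjusted p = 4.97e-06) and -0.53 with SRPIN340 (standard error 0.109, edgeR adjusted p = 0.0412). Acidosis lay below SRPIN340 by a log2 value of -0.63 (edgeR adjusted p = 0.000335). The SRPIN340 result did not pass when any sample of its own or the control group was left out, where the largest adjusted p was 0.296 (without SRPIN340 sample 1), nor without acidosis sample 3 (0.0615).

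TRIM21 (ENSG00000132109.10, chr11:4384897-4393702) was at 18.8 and 16.3 CPM in control, 11.6 and 12.4 CPM with SRPIN340, and 3.27, 3.40 and 2.67 CPM in acidosis. Here too the 3 ranges were separate. The log2 fold change was -2.49 in acidosis (standard error 0.172, edgeR adjusted p = 1.16e-06), a 5.62-fold fall. With SRPIN340 it was -0.55 (interval -0.93 to -0.17, edgeR adjusted p = 0.134), which did not pass after adjustment.

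TRIM5 (ENSG00000132256.20, chr11:5663195-5938619) was at 18.0 and 16.0 CPM in control, 14.3 and 12.9 CPM with SRPIN340, and 6.12, 10.1 and 8.17 CPM in acidosis. TRIM22 (ENSG00000132274.17, chr11:5689610-5737089), the least abundant of the 4 per kilobase, was at 6.27 and 4.04 CPM in control, 3.13 and 5.20 CPM with SRPIN340, and 1.43, 2.39 and 0.86 CPM in acidosis. For each gene the acidosis samples lay below all others, while control and SRPIN340 overlapped only for TRIM22. The log2 fold changes in acidosis were -1.08 for TRIM5 (standard error 0.199, edgeR adjusted p = 0.000895) and -1.74 for TRIM22 (standard error 0.415, edgeR adjusted p = 0.00429). TRIM5 dropped just under the fold limit without control sample 1 (-0.997) and without acidosis sample 1 (-0.90). With SRPIN340 the values were -0.33 and -0.31, with edgeR adjusted p = 0.475 and 0.77. The genes TRIM5 and TRIM22 overlap on opposite strands in the annotation, and whether quantification used strand is not given in the sources used here.

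**Figure D3:**
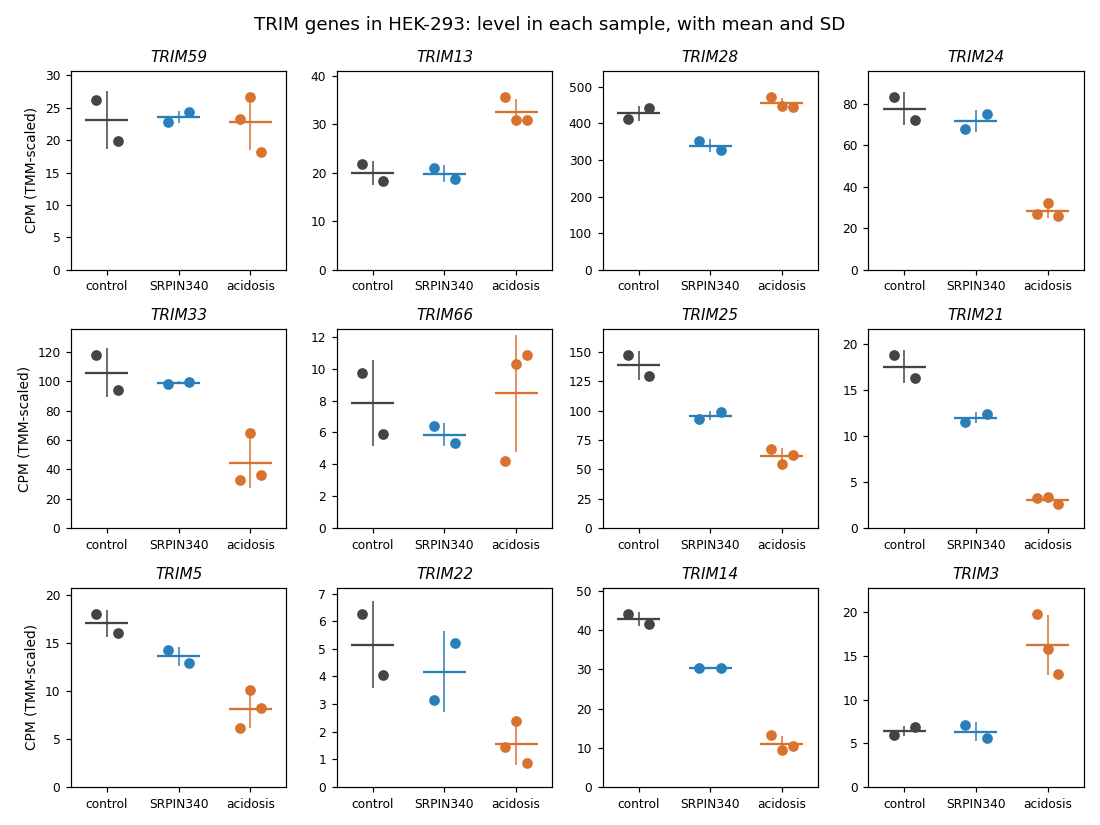
TMM-scaled CPM of 12 TRIM genes in every sample (points), with the group mean (horizontal line) and SD (vertical line), on linear axes that start at 0. TRIM59 overlaps in all groups, TRIM25 and TRIM21 step down from control over SRPIN340 to acidosis, and TRIM13 and TRIM3 are highest in acidosis.

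TRIM5 and TRIM22 lie in a cluster of neighbouring genes on chromosome 11 (GRCh38 chr11:5596109-5938619) together with TRIM6 and TRIM34. All 4 tested genes of the cluster were called lower in acidosis (against 19.1% of all genes tested), with log2 fold changes between -2.35 and -1.08. TRIM34 reached the filter's level only in control and SRPIN340, so that only a fall could be seen. TRIM34, an interferon-inducible relative of TRIM5, was at 1.77 and 1.79 CPM in control and 0.119, 0.551 and 0.430 CPM in acidosis. TRIM6, which makes free ubiquitin chains that activate the kinase IKKε, was at 9.33 and 8.5 CPM in control and 1.96, 3.03 and 2.06 CPM in acidosis. With SRPIN340 these neighbours were at 0.21 and 0.30 on the log2 scale, and neither passed (edgeR adjusted p = 0.876 and 0.515). The read-through gene TRIM6-TRIM34 was at 0 in every sample. Another protein-coding gene, ENSG00000239920, overlaps TRIM5 on the same strand and TRIM6 and TRIM34 on the opposite strand. It had 28.2 and 24.0 estimated counts in control, 19.3 and 20.3 with SRPIN340, and 13.8, 6.09 and 7.62 in acidosis, before scaling. How far counts were split between it and TRIM5 was not tested. In the cluster on chromosome 6 beside the class I HLA genes (chr6:30102897-30346854), 1 of 4 tested members was called lower, TRIM10.

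Among the other members called lower in acidosis, TRIM56, a ligase that restricts RNA viruses, went from 78.8 and 83.3 CPM in control to 24.5, 25.1 and 24.0 CPM in acidosis, a log2 fold change of -1.72 (standard error 0.085, edgeR adjusted p = 1.42e-07). TRIM14, an adaptor at the mitochondrial protein MAVS, went from 44.2 and 41.6 to 13.2, 9.36 and 10.5 CPM, a log2 fold change of -1.95 (standard error 0.143, edgeR adjusted p = 1.71e-06). TRIM69 and TRIM38 fell by 1.96 and 1.55 on the log2 scale. With SRPIN340, TRIM14 was at 30.3 CPM in both samples, below both control samples, and its log2 fold change of -0.50 had an edgeR adjusted p = 0.123. DESeq2 gave an adjusted p of 0.0465 for the same comparison, and edgeR fitted on only the control and SRPIN340 samples gave 0.0349. TRIM69 and TRIM56 with SRPIN340 were at -0.54 and -0.31 on the log2 scale (edgeR adjusted p = 0.118 and 0.11). For each gene both SRPIN340 samples lay below both control samples. The same held for 15 of the 53 tested members and for 26.8% of all genes tested.

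The RefSeq promoters of the members (GRCh38.p14, 250 bases before to 50 after the start) were searched on both strands for the core of the interferon-stimulated response element, written as GAAA, any 2 bases, GAAA. Of 27305 promoters of all genes, 996 held it (3.65%). Of 62 TRIM promoters, 10 held it, and of the 41 that belonged to tested members, 9 held it (22%). Among members called lower in acidosis 8 of 19 promoters held it (42.1%), and among tested members not called lower 1 of 22 did (4.55%), that of TRIM26. Of the called members, TRIM34 (with the element) and TRIM10 (without it) reached the filter's level only in control and SRPIN340. A match describes letters in a window and does not show binding. The 7 stretches printed here belong to called members with the match within 100 bases of the start, and are printed along the gene's strand with the match in capitals. They are shown so that the spacing and the distance to the start can be compared.
TRIM21 chr11:4393666-4393695 minus strand: cttctgagcgGAAACTGAAAGTGAAAtagg
TRIM5 chr11:5685082-5685111 minus strand: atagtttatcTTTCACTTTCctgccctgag
TRIM14 chr9:98119229-98119258 minus strand: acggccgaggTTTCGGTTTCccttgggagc
TRIM34 chr11:5624901-5624930 plus strand: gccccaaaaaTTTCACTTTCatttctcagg
TRIM69 chr15:44736456-44736485 plus strand: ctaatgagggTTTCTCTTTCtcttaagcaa
TRIM16 chr17:15683012-15683041 minus strand: acagaggtaaGAAATAGAAAtaaagggtcc
TRIM44 chr11:35662730-35662759 plus strand: tcctgacgggGAAAGGGAAAgtggaaccgg

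TRIM21 carried 2 overlapping matches, from base 17 to base 32 after the start. The matches of TRIM5 and TRIM14 began 27 and 26 bases before the start, and those of TRIM44, TRIM69, TRIM16 and TRIM34 began 35, 62, 80 and 90 bases before it. TRIM5 and TRIM34 shared the same 10 letters, TTTCACTTTC. The 9 tested members with the element had a median log2 fold change of -1.65 in acidosis (-2.49 to -0.27), and the 32 without it had -0.62 (-2.53 to 1.35). Of the 9, 8 were called lower, and of the 32, 11 were, against 19.1% of all genes tested. Over all tested genes with a promoter entry, 84 of the 340 with the element were called lower (24.7%, median log2 fold change -0.27), and 2158 of the 11485 without it (18.8%, median -0.045). The difference between members with and without the element was not tested. TRIM25 and TRIM56 fell without the element in this window, and 12 tested members, TRIM22 and TRIM28 among them, had no promoter entry. For each gene the search covered a single promoter entry, and other starts of the gene were not searched.

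**Figure D4:**
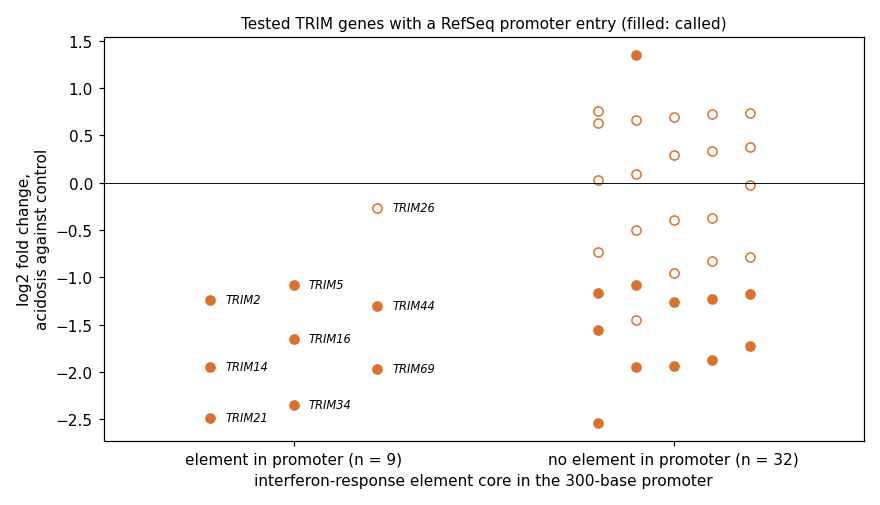
Log2 fold change in acidosis of the 41 tested TRIM genes with a RefSeq promoter, split by whether the 300-base promoter holds the core of the interferon-stimulated response element (9 with, 32 without). Filled points were called, and the horizontal spread of points has no meaning. Of the 9 with the element all but TRIM26 were called lower, against 24.7% of all tested genes with the element and 19.1% of all genes tested.

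The PHD-bromodomain members (class VI) are nuclear cofactors that read histone marks. TRIM28 was at 413 and 442 CPM in control, 352 and 326 CPM with SRPIN340, and 473, 449 and 445 CPM in acidosis. The SRPIN340 samples lay below all others. Its log2 fold change was 0.09 in acidosis (standard error 0.0645, edgeR adjusted p = 0.237), and by total count alone -0.48 (edgeR adjusted p = 8.8e-05). With SRPIN340 TRIM28 fell by 0.33 on the log2 scale (standard error 0.0704, edgeR adjusted p = 0.0467). That result passed in the leave-one-out fits only without acidosis sample 2, and its largest adjusted p was 0.352, without SRPIN340 sample 2. It had 0.0696 by total count. Acidosis lay above SRPIN340 by 0.42 (edgeR adjusted p = 0.000259).

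TRIM24, a cofactor of nuclear receptors, was at 83.3 and 71.9 CPM in control, 67.9 and 75.2 CPM with SRPIN340, and 27.1, 32.3 and 25.9 CPM in acidosis. TRIM33, which acts on SMAD4 in TGF-β signalling, was at 118 and 94.1 CPM in control, 98.1 and 99.6 CPM with SRPIN340, and 33.0, 64.5 and 36.0 CPM in acidosis. Both were lower in every acidosis sample, though acidosis sample 2 stood well above its replicates for TRIM33. The log2 fold changes were -1.45 for TRIM24 (standard error 0.118, edgeR adjusted p = 3.46e-06) and -1.26 for TRIM33 (standard error 0.236, edgeR adjusted p = 0.000963). With SRPIN340 they were -0.12 and -0.10, neither past the test. TRIM66, the least abundant of the class per kilobase, was at 9.73 and 5.93 CPM in control and 4.22, 10.3 and 10.8 CPM in acidosis, with overlapping groups (edgeR adjusted p = 0.846).

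By domain class, the largest group were the members with a PRY-SPRY domain, the fold that recognises capsids, antibodies and other partners. Of these 41 genes 26 passed the filter, and acidosis gave 13 lower calls among them (against 19.1% of all genes), with a median log2 fold change of -0.94. Without the fold limit, 3 of the 26 rose (against 32.5%) and 16 fell (against 34.2%) by edgeR. TRIM10 and TRIM58, known from red blood cell development, fell by 2.53 and 1.94 on the log2 scale, and TRIM68, TRIM27 and TRIM62 fell by 1.87, 1.25 and 1.18. TRIM10 reached the filter's level only in control and SRPIN340 and was close to the counting limit, at 1.30 and 1.40 CPM in control and 0.238, 0.275 and 0.172 CPM in acidosis.

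In the class set apart here as without a RING domain, 3 of 3 tested members were called lower, against 19.1% of all genes. They were TRIM14, TRIM16 and TRIM44. Classes did not overlap, and TRIM66 was counted in class VI. TRIM16, which recognises damaged lysosomes, went from 20.7 and 23.3 CPM to 5.11, 8.91 and 7.31 CPM, and TRIM44, which carries a zinc finger of deubiquitinating enzymes, from 140 and 146 CPM to 71.4, 47.4 and 53.7 CPM. Their log2 fold changes were -1.65 and -1.31. Further called members were TRIM45, which carries a filamin repeat, at -2.27, TRIM37 at -1.08 and TRIM46, which bundles axonal microtubules, at -1.23. TRIM46 was at 0.344 to 0.734 CPM in acidosis and had an adjusted p = 0.11 by DESeq2. It passed in the leave-one-out fits only without acidosis sample 2. The muscle ligase TRIM55 was called at -1.07, and it was not called without control sample 1 (edgeR adjusted p = 0.0779) or without acidosis sample 1 (0.0516) or 3 (-0.89).

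The members with NHL repeats moved in both directions. TRIM2, which ubiquitinates the neurofilament light chain, was called lower at -1.24, from 62.2 and 49.8 CPM in control to 24.6, 25.1 and 21.3 CPM in acidosis. TRIM3, a neuronal ligase of the same class, was the only member called higher. It was at 5.98 and 6.81 CPM in control, 7.08 and 5.54 CPM with SRPIN340, and 19.8, 15.8 and 13 CPM in acidosis. All acidosis samples lay above the rest, and the log2 fold change was 1.35 (standard error 0.216, edgeR adjusted p = 0.00036). By total count it was 0.77, still past the test (edgeR adjusted p = 0.00958) but under the fold limit.

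Apart from TRIM3 and TRIM13, the members that rose in acidosis did so by 0.33 to 0.75 on the log2 scale. TRIM23, which carries an ARF-type GTPase domain, went from 28.6 and 29.7 CPM to 48.1, 46.8 and 43.3 CPM. TRIM52, which lacks a C-terminal domain, went from 20.8 and 19.4 CPM to 33.8, 34.9 and 33.0 CPM. For both genes every acidosis sample lay above every control sample. The others were TRIM8, TRIM11, TRIM32, TRIM35, TRIM36 and TRIM47. By total count alone TRIM8, TRIM11, TRIM32 and TRIM36 lay below 0, TRIM8 fell (edgeR adjusted p = 0.0447), and of the 10 members only TRIM3 rose. In the test of acidosis against SRPIN340, TRIM3 and TRIM72, a membrane repair protein of muscle, were called higher, at 1.37 and 1.34 (edgeR adjusted p = 0.000327 and 0.0108). TRIM72 was at 1.69 and 1.44 CPM in control, 0.885 and 1.18 CPM with SRPIN340, and 2.20, 2.57 and 3.10 CPM in acidosis. TRIM7, a partner of the glycogen primer glycogenin, was called lower in that test at -1.81 (edgeR adjusted p = 0.00101). It was at 1.40 and 2.25 CPM in control, 3.61 and 4.10 CPM with SRPIN340, and 1.07, 1.10 and 1.12 CPM in acidosis. Against control, TRIM72 and TRIM7 passed neither in acidosis (edgeR adjusted p = 0.102 and 0.0904) nor with SRPIN340 (0.493 and 0.153).

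**Figure D5:**
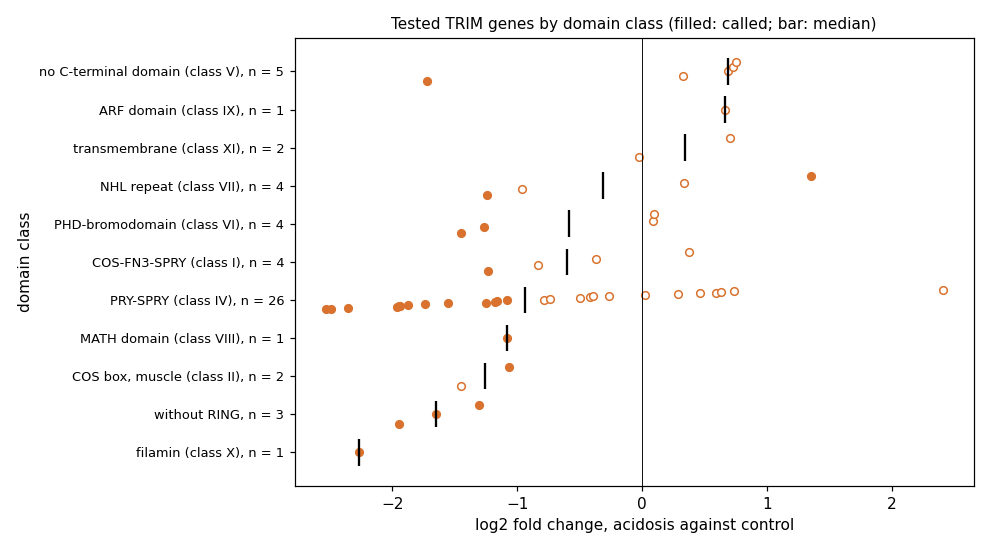
Log2 fold change in acidosis of the 53 tested TRIM genes by domain class, with filled points for called genes and a bar at the class median. The PRY-SPRY class (n = 26) spans the whole range with a median of -0.94, and its upper end is TRIM43, which has hardly any counts. All 3 tested members of the class set apart as without a RING domain were called lower.

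Genes that work with TRIM proteins were counted from lists, beside 32.5% of all genes that rose and 34.2% that fell in acidosis. Of 6 tested TRIM proteins with other symbols, only PML, the organiser of nuclear bodies, passed the test in acidosis. It rose by 0.88 on the log2 scale (edgeR adjusted p = 8.91e-05), from 49.7 and 59.6 CPM to 110, 98.3 and 92.8 CPM. With SRPIN340 PML fell to 32.0 and 35.9 CPM, a log2 fold change of -0.69 (edgeR adjusted p = 0.0318). Acidosis and SRPIN340 share the control samples. Of 15 ubiquitin-conjugating enzymes, which pass ubiquitin to RING ligases, 9 rose and 4 fell in acidosis. UBE2W was called higher at 1.56, and UBE2L6, the enzyme for the ubiquitin-like ISG15, lower at -1.56. Of 13 partners of TRIM28 in chromatin repression, 4 rose and 6 fell, near the shares of all genes. CBX1 was called higher at 1.30, and HDAC2 and TASOR lower at -1.36 and -1.35. Of 16 genes of RIG-I and interferon signalling, 2 rose and 10 fell, with IFIH1 and RIPK1 at -2.73 and -2.22 and TRAF6 at 1.47. With SRPIN340 5 of these 16 fell (against 1.53% of all genes), and IRF7, RIGI and IRF9 were called lower (against 0.195%) at -1.76, -1.57 and -1.13.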

How the data were processed

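RNA of 7 samples in 3 groups was analysed, grouped by the labels. Per the labels' processing notes and the methods, the authors trimmed reads with Trimmomatic 0.39 and Trim Galore 0.6.6, quantified transcripts with Salmon 1.5.1 on GRCh38 and summarised to genes with tximport. What they deposited are estimated counts, not normalized between samples, and overlapping genes can share them. Symbols came from GENCODE release 44 by Ensembl identifier, which matched 19977 of 19978 genes.

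Rounded to integers, the counts entered edgeR 4.0.16 under R 4.3.3 (filterByExpr, TMM, quasi-likelihood fit of all 7 samples, Benjamini-Hochberg adjustment over all genes tested). Standard errors came from the test statistic. CPM used TMM-scaled totals, and levels per kilobase the length of the canonical transcript. The deposited gene counts give no splicing measure.

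The members, classes and gene lists were chosen with earlier results of these data known. Named were TRIM59, TRIM13, the interferon-linked and class VI members, every called member, the 5 most abundant per kilobase and up to 3 called genes per list. Some genes of the lists are not reported here by name. Alternatives were DESeq2 1.42.0, the study's own tool, RLE size factors, total count scaling, other filters, only the groups compared, a replicate block, no fold limit and each sample left out. Whether replicate numbers pair the samples could not be decided. Correlations of same-numbered samples lay between -0.115 and 0.063, but groups of 2 or 3 samples are too small to settle it. Replicates of each group differed beyond sampling noise. Promoters came from RefSeq (GRCh38.p14) and primers were located as exact matches. Python 3.11.15 and matplotlib 3.10.9 made the figures.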

Additional observations from a re-analysis of the deposited data

How the results depend on the processing

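The count of members called lower in acidosis lay between 19 and 28 under all alternatives. By total count alone, members called higher were 0 in acidosis and 0 against SRPIN340, the members' median was -1.40 and TRIM59 in acidosis was -0.60, now past the test. In the same setting TRIM66 and TRIM28 in acidosis turned to -0.48 and -0.48, and TRIM13 and TRIM3 with SRPIN340 to 0.0300 and 0.0204. DESeq2 moved the median to -0.44 over 62 members (-0.79 over the 53), and 1 member was called higher against SRPIN340 with a mean of at least 6 CPM. Without the fold limit, 10 members were higher in acidosis, 2 changed with SRPIN340 and 11 were higher in acidosis than with SRPIN340. RLE size factors gave 0.00041 for TRIM59 in acidosis.

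The replicate block, whose pairing could not be decided, gave a median of -1.001, with TRIM59 at 0.11 and TRIM66 at -0.15 in acidosis. With SRPIN340, 0 members passed the test under this block (2 without it).

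With each sample left out in turn, the median lay between -0.94 and -0.54 (without control sample 1), members higher than with SRPIN340 between 1 and 4, and TRIM59 between -0.23 and 0.18 in acidosis and -0.16 and 0.24 with SRPIN340. Signs also turned for TRIM66 in acidosis (-0.24 to 0.48) and, with SRPIN340, for TRIM22 (-0.72 to 0.045), TRIM33 (-0.25 to 0.071), TRIM13 (-0.13 to 0.12), TRIM2 (-0.0464 to 0.28), TRIM3 (-0.21 to 0.15), TRIM68 (-0.089 to 0.16) and TRIM37 (-0.0402 to 0.16), none of which passed the test with all samples. Causes were not tested. Members under 1 CPM, such as TRIM43 and TRIM54, were measured too imprecisely to show changes of the sizes called here.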
